A study of Mus musculus with 6 samples.

Results

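The vascular basement membrane genes described here are Col4a1, Col4a2, Lama4, Lamb1, Lamc1, Nid1, Nid2, Hspg2, Sparc and Fn1. They were chosen by gene symbol, and all 10 were found among the 55487 genes of the table. RNA was sequenced from vascular endothelial cells (VECs) sorted from mouse retinas at postnatal day 7.5 (P7.5) as cells positive for both GFP and tdTomato. GFP comes from the Pdgf-icreER transgene, an inducible Cre driven by Pdgfb regulatory sequence, and tdTomato appears once Cre has recombined its reporter. The control group was tdTomato FL/+;Pdgf-icreER (3 libraries, numbered 1 to 3) and the Bmal1;CKO group was Bmal1 FL/FL;tdTomato FL/+;Pdgf-icreER (3 libraries, numbered 4 to 6). Both groups carried the Cre transgene and the reporter and were given tamoxifen between P0.5 and P2.5, so they differ in the floxed Bmal1 alleles. The question is how loss of the clock transcription factor Bmal1 from the endothelium of the growing retina relates to the transcripts of the matrix that new vessels lay down.

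A basement membrane is the thin sheet of matrix on which endothelial cells sit, and in capillaries it is shared with the pericytes. Laminin, a trimer of an alpha, a beta and a gamma chain, polymerizes at the cell surface, collagen IV forms a second, covalently linked network, and nidogen and the heparan sulfate proteoglycan perlecan join them. Sparc binds collagens in and around the cell, and fibronectin is the provisional matrix on which sprouting vessels advance in the retina. Endothelial cells make these proteins together with pericytes, astrocytes and, for several of them, microglia.

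Between 71145068 and 104017800 reads per library fell on genes. Values below are normalized counts, that is reads divided by the size factor of the library. Bmal1 (listed as Arntl, ENSMUSG00000055116, chr7:113207465-113314126, plus strand, GRCm38) was read at 1700, 3489 and 2928 normalized counts in control libraries 1 to 3 and at 1779, 2747 and 2415 in Bmal1;CKO libraries 4 to 6, so the groups overlapped. Its log2 fold change was -0.19 (SE 0.36, limma-trend adjusted p = 0.924), ranged from -0.49 to 0.03 with 1 library left out, and was 0.37 after scaling to endothelial markers. The table has 1 value per gene, so reads from the floxed part of Bmal1 cannot be told from the rest, and the level does not separate the genotypes. By droplet digital PCR on sorted endothelial cells of these genotypes, the study reports significantly less Bmal1 transcript in the mutant. All 14 endothelial markers were detected in every library, led by Cldn5 and Esam, and their sum was 193875 to 379341 normalized counts in control and 118014 to 250486 in Bmal1;CKO. The 9 microglia and macrophage markers, led by C1qb and C1qc, summed to 1600520 to 4592290 in control and 2225000 to 4392000 in Bmal1;CKO, and the 12 rod markers, led by Pdc and Rom1, summed to 660752 to 1151100 over the 6 libraries. Per kb of exon, C1qb averaged 1053680 normalized counts over the 6 libraries and Cldn5 81069, so the cells labelled endothelial carried microglial transcripts at a higher level than their leading endothelial marker. The 10 pericyte and mural markers, led by Rgs5 and Kcnj8, summed to 2642 in control library 1, 7681 in library 2, 49315 in library 3 and 4439 to 9041 in Bmal1;CKO, with Abcc9, Tagln and Myh11 at 0 in at least 1 library. The 7 fibroblast markers, led by Pdgfra and Col5a1, summed to 317 to 3728 in control and 851 to 962 in Bmal1;CKO, with Col1a1, Col3a1 and Dcn at 0 in at least 1 library and Lum at 0 in all 6. The 6 Muller glia markers, led by Vim and Rlbp1, summed to 63358 to 95476, the 6 astrocyte markers, led by Slc1a3 and Gfap and with Pax2 and Aqp4 at 0 in at least 1 library, to 5839 to 11393, and the 5 erythroid markers, led by Hbb-bs and Hbb-bt, to 1257 to 19008. In sorted bulk RNA, fewer cells of a type and less RNA per cell cannot be told apart.

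Col4a1 and Col4a2 lie head to head on chromosome 8, a known arrangement in which a shared stretch between the genes drives both. In the GRCm38 annotation their first exons overlap by 22 bases, at chr8:11312805-11312826, and this stretch is printed here because the pair moved most closely together below. Capitals mark the GC box (GGGCGG, or CCGCCC on the other strand). All motifs were searched on both strands, and bases that a GC box shares with a CCAAT box were counted for both. Promoter windows, from 250 bases before to 50 bases after the start of the gene, were in the RefSeq table (GRCm38.p6) for 6 members, namely Hspg2, Col4a1, Col4a2, Sparc, Lamb1 and Nid1. The stretches of Hspg2 (chr4:137468553-137468768), Nid1 (chr13:13437352-13437550) and Lamb1 (chr12:31265043-31265233), all on the plus strand and upstream of the annotated gene, show how the same box is placed in members of other chromosomes.
Col4a2, plus strand of the overlap: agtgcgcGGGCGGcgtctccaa
Col4a1, minus strand of the overlap: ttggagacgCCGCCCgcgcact
Hspg2: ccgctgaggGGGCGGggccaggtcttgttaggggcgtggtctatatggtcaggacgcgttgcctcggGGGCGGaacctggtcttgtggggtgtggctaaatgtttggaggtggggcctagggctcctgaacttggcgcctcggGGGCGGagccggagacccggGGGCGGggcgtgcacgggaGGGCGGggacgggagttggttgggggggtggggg
Nid1: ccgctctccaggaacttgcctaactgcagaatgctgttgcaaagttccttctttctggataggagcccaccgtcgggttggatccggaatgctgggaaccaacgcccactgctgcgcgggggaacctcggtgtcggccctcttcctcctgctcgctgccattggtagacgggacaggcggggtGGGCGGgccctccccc
Lamb1: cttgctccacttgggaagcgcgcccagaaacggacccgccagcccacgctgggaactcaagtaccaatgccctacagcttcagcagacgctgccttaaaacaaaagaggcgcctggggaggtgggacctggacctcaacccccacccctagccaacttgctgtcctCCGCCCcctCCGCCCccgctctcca

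The GC box was in 5 of the 6 member windows (all but Sparc) and in 35.7% of all 32851 windows. The windows of Col4a1 and Col4a2 overlap, and the 1 GC box of Col4a1 is the shared one printed above, so it counts for both. The Sparc window (chr11:55420031-55420330) lies inside the gene as annotated by GENCODE, which starts at chr11:55423183 on the minus strand. The stretch of Hspg2 holds 5 GC boxes, that of Nid1 holds 1, and that of Lamb1 holds 2 on the other strand. CCAAT was in the windows of Col4a1, Col4a2, Lamb1 and Nid1, against 37.4% of all windows. CACGTG, the E-box that the Bmal1 and Clock pair is known to bind, was in 0 of the 6 member windows and in 7.15% of all windows, and TATAAA was in 0 of 6 and in 13.6%. The lack of a match says only that these letters are not in these windows.

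Of the 10 genes, 9 were lower on average in Bmal1;CKO than in control, with Sparc as the exception, but the groups overlapped in all 10. The median log2 fold change was -0.65, from -0.86 for Lama4 to 0.05 for Sparc, against a median of 0.11 over the 20459 genes tested. The median of the 10 was -0.17 without library 5 and -1.06 without control library 2. A lower value was seen in 43.4% of all tested genes. By limma-trend, 0 of the 10 genes passed an adjusted p of 0.05, as did 0 of all genes (0.0%), and 0 of the 10 had an unadjusted p under 0.05, against 4.92% of all genes. The libraries of the 2 groups did not overlap in 11.2% of all genes and in 0 of the 10. With edgeR on the recovered reads 10 of 10 were lower, without control library 1 the number was 8 of 10, and with DESeq2 or edgeR 0 of the 10 passed an adjusted p of 0.05.

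**Figure D1:**
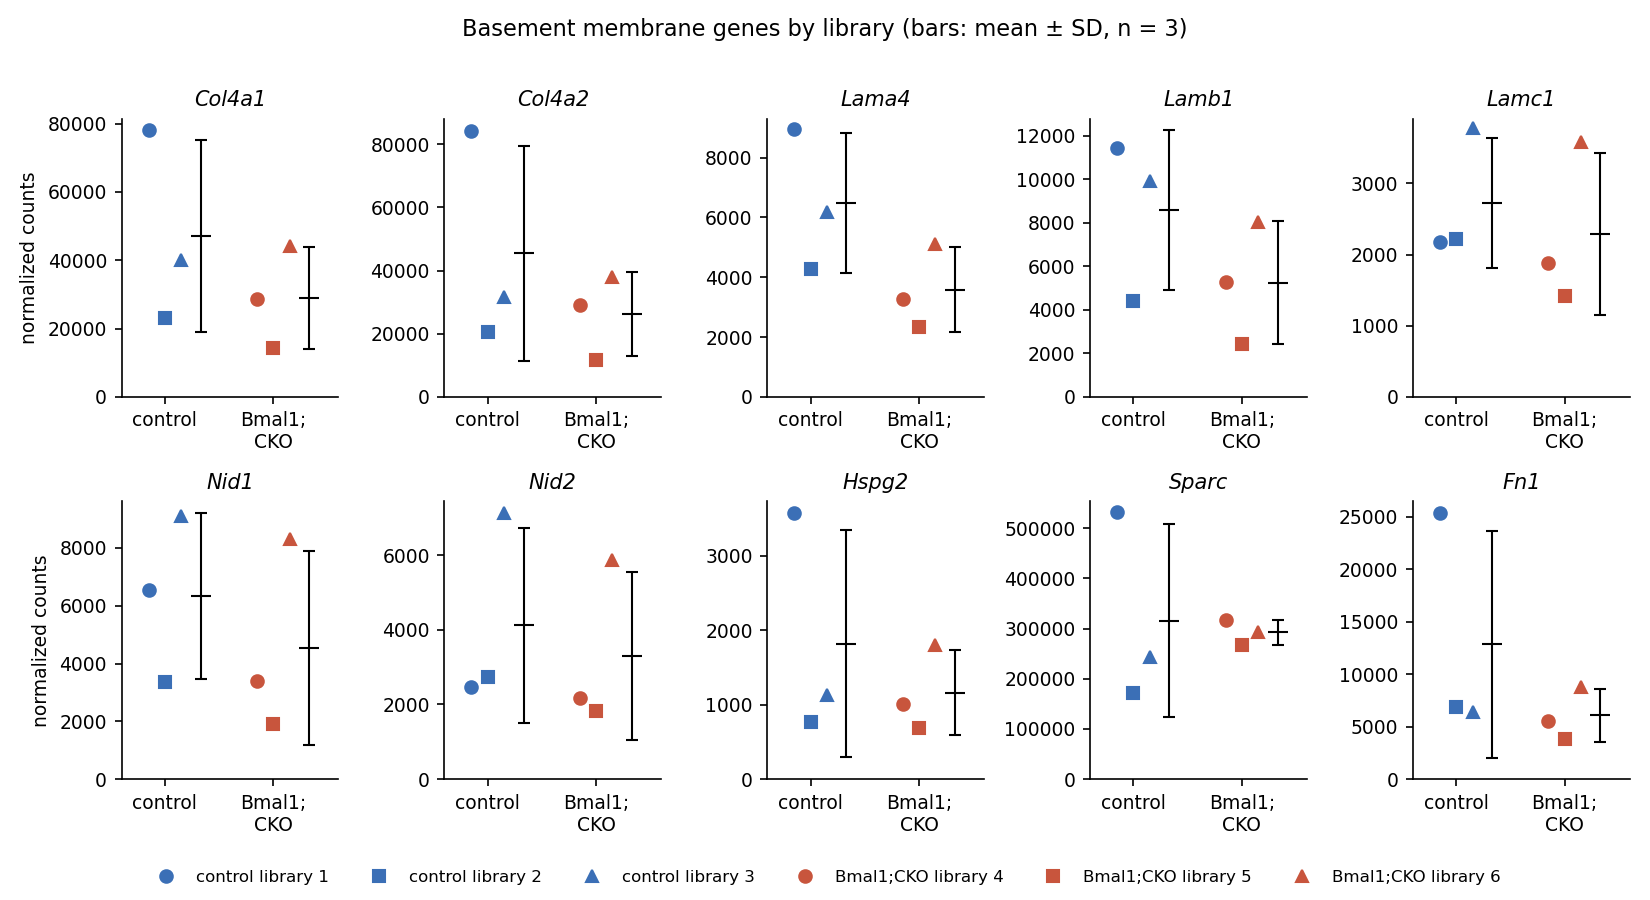
Normalized counts (vertical axes, from 0) of the 10 basement membrane genes in control libraries 1 to 3 (blue) and Bmal1;CKO libraries 4 to 6 (red), with the mean ± SD (n = 3) as bars. Library 5 was the lowest in 9 of the 10 genes, library 1 the highest in 7, and the groups overlap in every panel.

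The collagen IV chains form the network that gives the capillary wall its tensile strength, and Col4a1 and Col4a2 are its ubiquitous chains. Col4a1 (ENSMUSG00000031502, chr8:11198423-11312826, minus strand) was read at 78135, 23079 and 40135 normalized counts in control libraries 1 to 3 and at 28619, 14240 and 44129 in Bmal1;CKO libraries 4 to 6. Control library 1 stood above all others, library 6 of Bmal1;CKO came next, and library 5 was the lowest. The group means were 47116 ± 28184 (SD, n = 3) in control and 28996 ± 14948 in Bmal1;CKO, and the log2 fold change was -0.67 (SE 0.55, 95% confidence interval -1.95 to 0.61) with an adjusted p of 0.883. For Col4a2 (ENSMUSG00000031503, chr8:11312805-11449287, plus strand), the control libraries gave 84328, 20600 and 31637 and the Bmal1;CKO libraries 29119, 11823 and 37887. All 6 libraries stood in the same order as for Col4a1. Col4a2 had a log2 fold change of -0.69 (SE 0.61, 95% confidence interval -2.11 to 0.73, adjusted p = 0.883). Single libraries moved both differences: without control library 1 they were -0.22 for Col4a1 and -0.12 for Col4a2, without library 5 they were -0.23 and -0.20, and without control library 2 they were -1.10 and -1.13.

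Lama4, Lamb1 and Lamc1 encode the chains of laminin-411, the laminin that endothelial cells make from the first sprouts on. Lama4, the alpha chain (ENSMUSG00000019846, chr10:38965515-39110188, plus strand), was read at 8949, 4287 and 6174 in control and at 3280, 2350 and 5123 in Bmal1;CKO. Control libraries 1 and 3 were the highest, and library 6 of Bmal1;CKO stood above control library 2, which was the only crossing between the groups. Its means were 6470 ± 2345 in control and 3584 ± 1411 in Bmal1;CKO (SD, n = 3), and its log2 fold change of -0.86 (SE 0.39, 95% confidence interval -1.77 to 0.04) was the most negative of the 10 genes by limma-trend (unadjusted p = 0.059, adjusted p = 0.883). By edgeR on the recovered reads Fn1 was lower, at -1.07 against -0.85 for Lama4, and it was also lower without control library 3, at -1.20 against -0.86. Leaving out 1 library moved Lama4 between -1.16 and -0.59.

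Lamb1, the beta chain (ENSMUSG00000002900, chr12:31265234-31329644, plus strand), was read at 11427, 4416 and 9909 in control and at 5297, 2419 and 8036 in Bmal1;CKO. The 2 highest libraries were control and the lowest was Bmal1;CKO library 5, with library 2 of control below libraries 4 and 6. The log2 fold change was -0.76 (SE 0.52, adjusted p = 0.883), from means of 8584 ± 3688 and 5251 ± 2809 (SD, n = 3), and ranged from -1.18 without control library 2 to -0.28 without library 5. Lamc1, the gamma chain shared by most laminins (ENSMUSG00000026478, chr1:153218922-153332786, minus strand), was read at 2175, 2217 and 3775 in control and at 1883, 1416 and 3583 in Bmal1;CKO. Here libraries 3 and 6, 1 of each genotype, were the highest, and control library 1 was only the fourth. Lamc1 differed least among the laminin chains, with a log2 fold change of -0.31 (SE 0.42, 95% confidence interval -1.29 to 0.67, adjusted p = 0.90). It was -0.018 without library 5, -0.050 without control library 3 and -0.69 without library 6.

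Nid1 and Nid2 encode nidogens, which bridge laminin and collagen IV. Nid1 (ENSMUSG00000005397, chr13:13437551-13512269, plus strand) was read at 6531, 3358 and 9106 in control and at 3398, 1909 and 8300 in Bmal1;CKO. Nid2 (ENSMUSG00000021806, chr14:19751265-19811787, plus strand) was read at 2478, 2732 and 7139 in control and at 2162, 1824 and 5881 in Bmal1;CKO. Both genes were highest in control library 3, next in Bmal1;CKO library 6 and lowest in library 5. Control library 3, where pericyte and mural markers were highest, held 7139 normalized counts of Nid2 against at most 2732 in the other control libraries. Bmal1;CKO library 6 held 5881 of Nid2 with pericyte and mural markers at 7758, near their 7681 in control library 2, where Nid2 was 2732. The log2 fold change was -0.63 for Nid1 (SE 0.58, 95% confidence interval -1.98 to 0.72, adjusted p = 0.883), and it was -0.14 without library 5 and -1.20 without library 6. It was -0.35 for Nid2 (SE 0.57, 95% confidence interval -1.67 to 0.97, adjusted p = 0.909) and turned to 0.13 without library 3. The part of pericyte RNA in the nidogen values was not tested.

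Hspg2 encodes perlecan, the proteoglycan that holds growth factors in the vessel wall. Hspg2 (ENSMUSG00000028763, chr4:137468769-137570630, plus strand) was read at 3566, 761 and 1128 in control and at 1011, 682 and 1794 in Bmal1;CKO. Control library 1 was the highest and library 6 of Bmal1;CKO the second, so that the other control libraries fell among the Bmal1;CKO ones. Its log2 fold change was -0.44 (SE 0.64, 95% confidence interval -1.91 to 1.04, adjusted p = 0.905), and it was 0.21 without library 1 and -0.90 without library 2.

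Sparc, the collagen-binding matricellular protein, was the most abundant transcript of the 10 per length, and Fn1, which encodes fibronectin, had the largest coefficient of variation over the 6 libraries, 83.9%. Sparc (ENSMUSG00000018593, chr11:55394500-55423183, minus strand) was read at 533435, 170855 and 242898 in control and at 316269, 267453 and 293389 in Bmal1;CKO. The 3 Bmal1;CKO libraries lay within the range of the control libraries, which held both the highest and the lowest value. With means of 315729 ± 191949 and 292370 ± 24424 (SD, n = 3), its log2 fold change was 0.05 (SE 0.51, 95% confidence interval -1.12 to 1.23, adjusted p = 0.988), and it was -0.11 by edgeR on the recovered reads. Without control library 1 it was 0.52 and without control library 2 it was -0.30. Fn1 (ENSMUSG00000026193, chr1:71585520-71653200, minus strand) was read at 25308, 6831 and 6372 in control and at 5568, 3844 and 8826 in Bmal1;CKO. Control library 1 stood far above the other 5, and library 6 of Bmal1;CKO was the second highest. Its log2 fold change was -0.85 (SE 0.57, 95% confidence interval -2.17 to 0.48, adjusted p = 0.883), with -0.20 without control library 1 and -1.20 without control library 3.

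**Figure D2:**
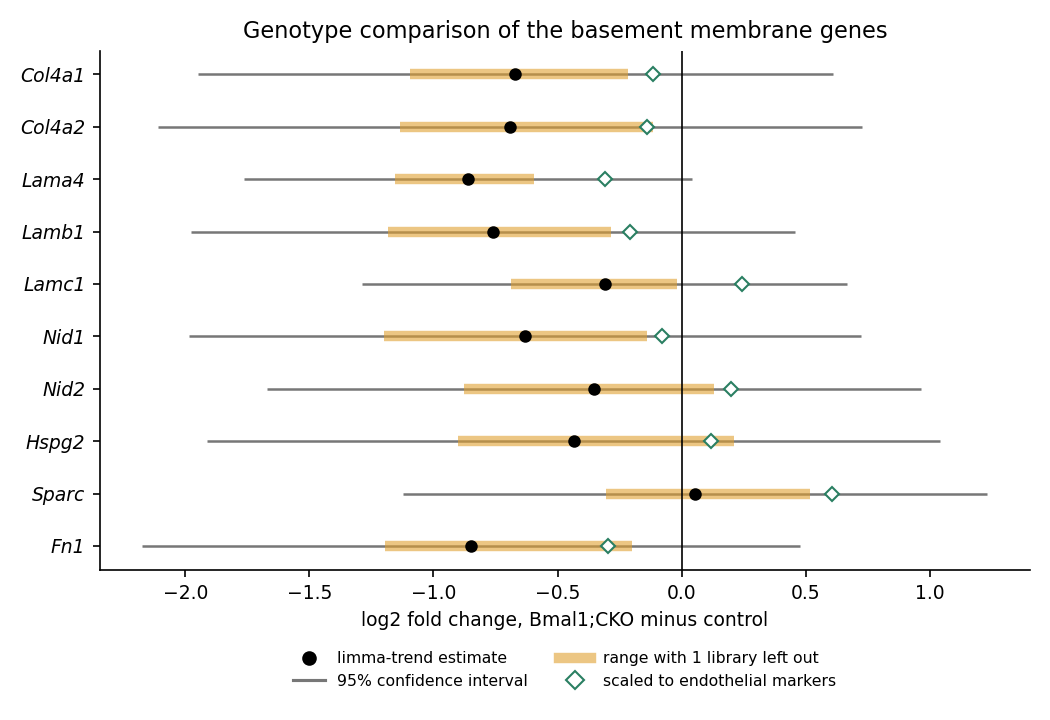
Log2 fold change of each gene, Bmal1;CKO minus control (horizontal axis), from limma-trend on 3 libraries per group (black points) with the 95% confidence interval (grey lines), the range when 1 library is left out (yellow bars) and the value after scaling to 14 endothelial markers (open green diamonds). Every confidence interval includes 0, and the diamonds lie between -0.31 and 0.61.

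Each gene had between 719 and 433548 reads in every library, and 719 reads carry a counting error of 3.73%, which leaves out the error of amplification. Per kb of exon, the mean normalized count over the 6 libraries was 80267 for Sparc, 5424 for Col4a2, 5099 for Col4a1, 809 for Fn1, 783 for Nid1, 716 for Nid2, 698 for Lamb1, 417 for Lama4, 303 for Lamc1 and 104 for Hspg2. Sparc stood above Col4a2, Col4a1 above Fn1, Lamb1 above Lama4, and Lamc1 above Hspg2 in 6 of 6 libraries. Between them the order did not hold in every library: Col4a2 was above Col4a1, Fn1 above Nid1, and Nid1 above Nid2 in 3 of 6 libraries each, Nid2 above Lamb1 in 4 of 6, and Lama4 above Lamc1 in 5 of 6. The highest library exceeded the lowest most for Col4a2, by 7.13-fold, and least for Lamc1, by 2.67-fold.

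The endothelial markers themselves were lower in Bmal1;CKO, 14 of 14 by sign with a median log2 fold change of -0.50 and 0 at an unadjusted p under 0.05 by limma-trend. Without control library 1 the median was -0.14 with 12 of 14 lower, and without library 5 it was -0.16 with 11 of 14 lower. Library 5 was the lowest for 13 of the 14 and library 1 the highest for 12, the same libraries that were at the ends for most basement membrane genes. Each gene was therefore also divided by the geometric mean of the 14 markers in its own library, which was 12110, 6669 and 6155 in control libraries 1 to 3 and 5674, 3311 and 8381 in Bmal1;CKO libraries 4 to 6. On this scale 6 of the 10 genes were lower and 4 higher in Bmal1;CKO, with a median log2 difference of -0.10. The scaling adds nearly the same amount to every gene with many reads. Genes with few reads can move by another amount, because 1 is added to each value after it. The median of all tested genes was 0.65 on this scale, and the place of the 10 genes among genes with many reads stays nearly as it was.

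Relative to the endothelial markers, the Bmal1;CKO libraries lay within the range of the control libraries for 7 of the 10 genes (Col4a1, Col4a2, Lamb1, Lamc1, Nid1, Nid2 and Hspg2), whereas in normalized counts this held for Sparc alone. The share of all tested genes for which this holds was not counted, so the 7 is not read as a result about these genes. The ratio for Col4a1 was 6.45, 3.46 and 6.52 in control and 5.04, 4.30 and 5.27 in Bmal1;CKO. For Hspg2 it was 0.294, 0.114 and 0.183 in control and 0.178, 0.206 and 0.214 in Bmal1;CKO, with nearly equal means of 0.197 ± 0.0910 and 0.199 ± 0.0188 (SD, n = 3). Lama4 was at 0.739, 0.643 and 1.00 in control and 0.578, 0.710 and 0.611 in Bmal1;CKO (log2 difference -0.31, exact permutation p = 0.2, two-sided).

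Sparc moved the other way on this scale, at 44.0, 25.6 and 39.5 in control and 55.7, 80.8 and 35.0 in Bmal1;CKO. Libraries 4 and 5 stood above all control libraries and library 6 among them, for a log2 difference of 0.61 (exact permutation p = 0.3, two-sided). Lamc1 and Nid2, lower in normalized counts, were higher by 0.24 and 0.20 on the log2 scale, with exact permutation p of 0.8 and 0.9. With 3 libraries against 3 the smallest p is 0.1.

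**Figure D3:**
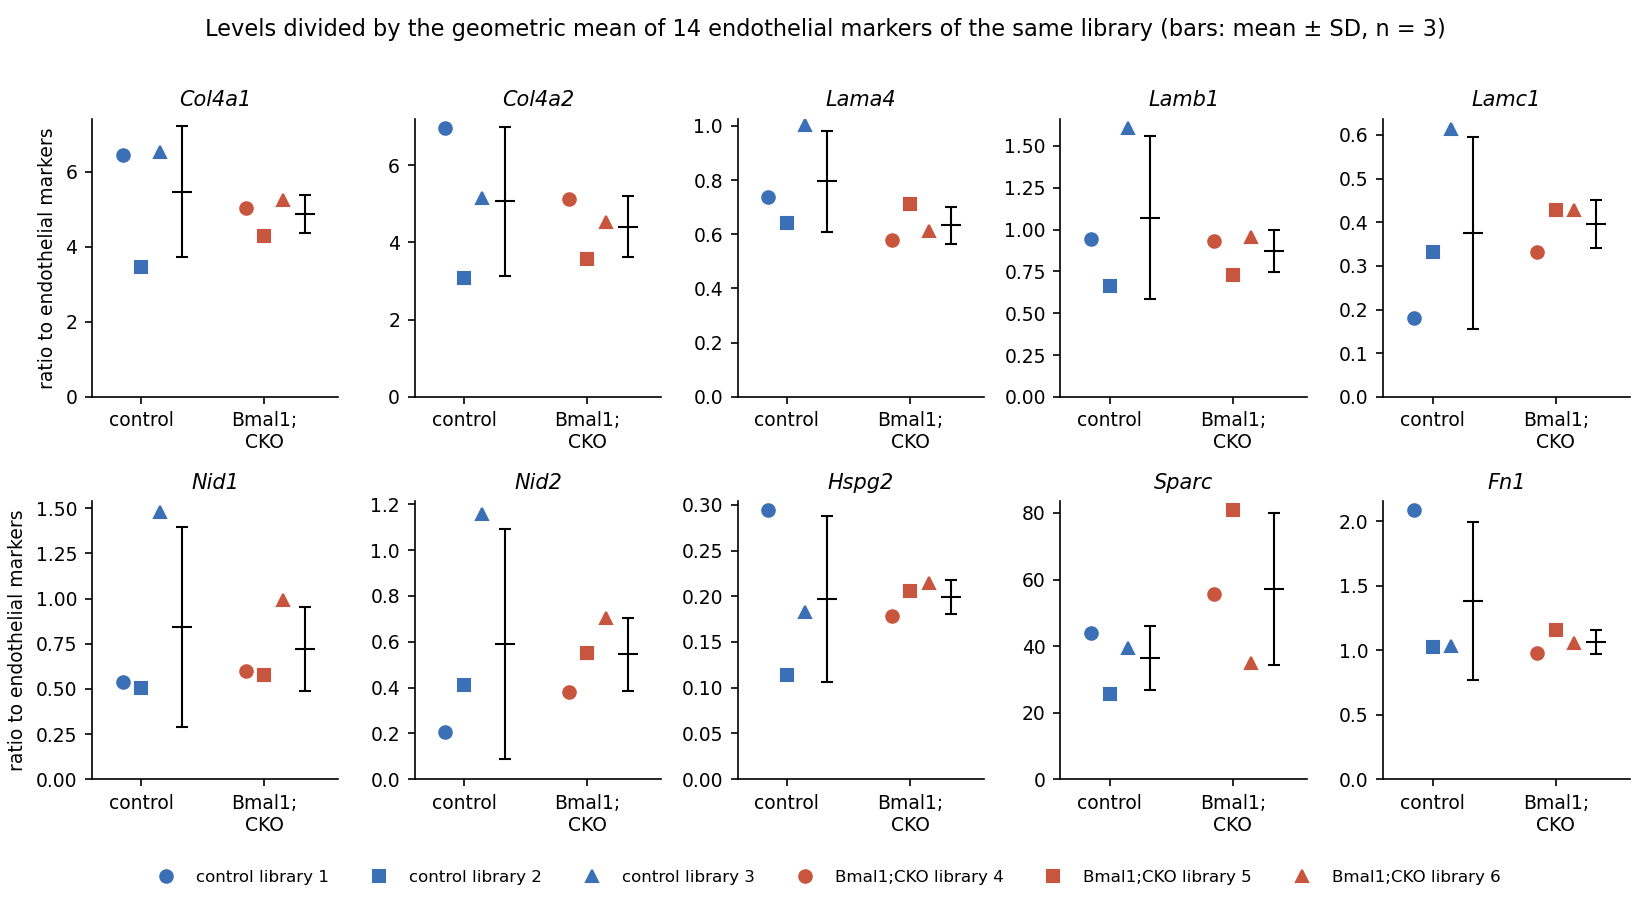
Normalized count of each gene divided by the geometric mean of 14 endothelial markers of the same library (vertical axes, from 0, no unit), for control (blue) and Bmal1;CKO (red) with the mean ± SD (n = 3). In 7 of the 10 panels the Bmal1;CKO libraries lie within the range of the control libraries, a count without the share over all genes. Sparc is the gene with the largest difference, 0.61 on the log2 scale.

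Chains that are built into 1 molecule, and the nidogens Nid1 and Nid2, which are separate molecules, were compared within each library. There the scaling between libraries drops out. Per kb of exon, the ratio of Col4a1 to Col4a2 was 0.822, 0.993 and 1.12 in control and 0.872, 1.07 and 1.03 in Bmal1;CKO. The chains thus stayed near 1 to 1 in all 6 libraries while their own levels spanned 5.49-fold and 7.13-fold. The means were 0.980 ± 0.152 and 0.991 ± 0.105 (SD, n = 3), a log2 difference of 0.02 (exact permutation p = 0.9, two-sided) that ranged from -0.10 to 0.13 with 1 library left out.

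The laminin chains kept a looser ratio. Lamb1 to Lamc1 was 4.38, 1.66 and 2.19 in control and 2.35, 1.43 and 1.87 in Bmal1;CKO, and Lama4 to Lamc1 was 2.82, 1.33 and 1.12 in control and 1.19, 1.14 and 0.980 in Bmal1;CKO. Control library 1 gave the highest value of both, and the other 5 libraries lay between 1.43 and 2.35 for Lamb1 to Lamc1 and between 0.980 and 1.33 for Lama4 to Lamc1. The log2 differences were -0.45 (exact permutation p = 0.5) and -0.55 (exact permutation p = 0.3). Nid1 to Nid2 was 1.96, 0.916 and 0.951 in control and 1.17, 0.780 and 1.05 in Bmal1;CKO, again highest in library 1, with a log2 difference of -0.28 (exact permutation p = 0.7) that became 0.08 without that library. Adjusted over the 4 ratios, each p was 0.9.

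Across the 6 libraries the genes fell into different patterns, given here as a description, since the libraries share their makeup of cells. Of the 45 pairs of genes, 14 had a Pearson r over 0.9 and 13 had an r under 0.5 on log2(normalized count + 1), with a range from -0.19 to 0.99. Every pair under 0.5 that did not involve Sparc was higher without control library 1. These then lay between 0.72 (Nid2 and Fn1, 0.09 with it) and 0.93 (Lama4 and Nid2, 0.49 with it). The split among the genes other than Sparc thus rests on that library. Col4a1 and Col4a2 had r = 0.99 (Spearman rho 1.00), and r = 0.94 without libraries 1 and 5, the 2 farthest from the median of Col4a1. Col4a1 with Hspg2 had r = 0.94, and 0.91 without the same libraries.

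Lamc1 and Nid2, which lie on different chromosomes, had r = 0.98 (rho 1.00), and r = 0.97 without libraries 3 and 6. Col4a1 and Nid2 had r = 0.42, and 0.87 without library 1, in which Nid2 was below its mean and Col4a1 far above. Sparc followed none of the laminin or nidogen genes, with r from -0.19 with Nid2 to 0.49 with Lamb1.

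**Figure D4:**
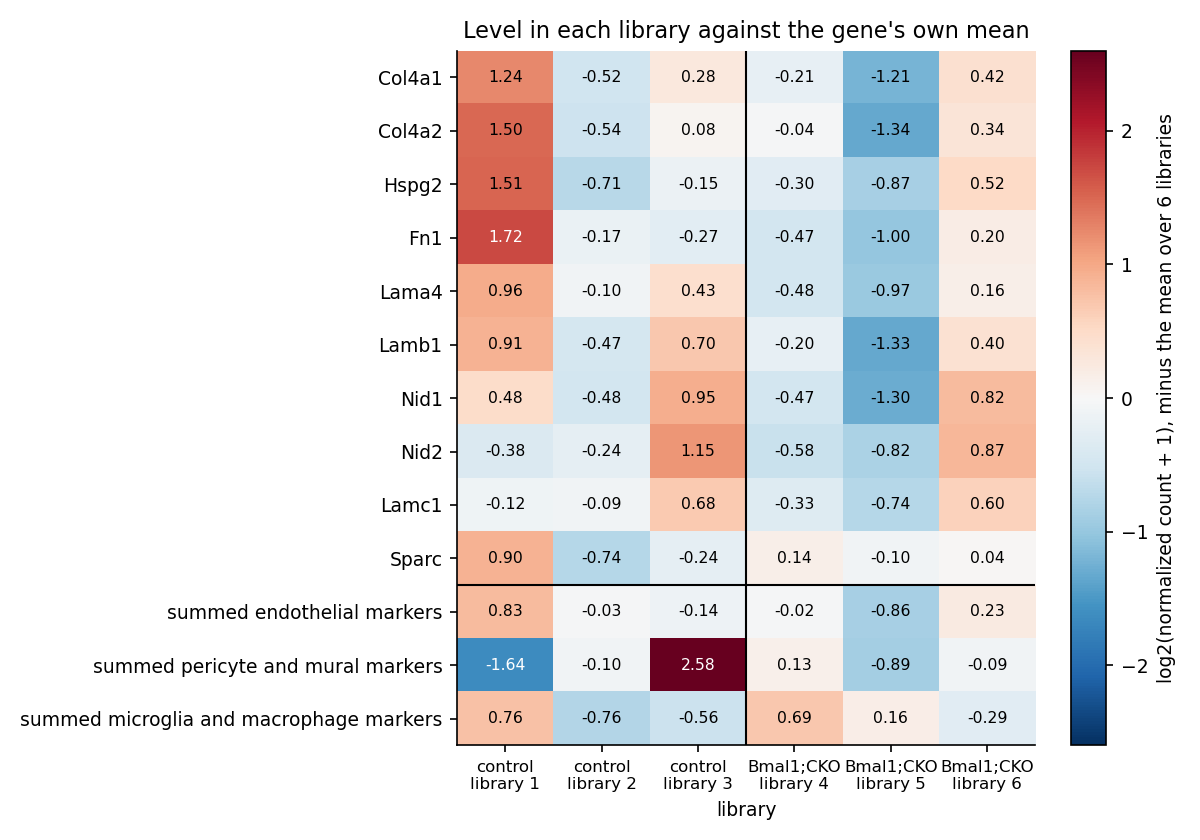
Level of each basement membrane gene (upper rows) and of 3 summed marker lists (lower rows) in each library, as log2(normalized count + 1) minus the mean of the row over the 6 libraries (color and printed value). Most genes are highest in control library 1 and lowest in Bmal1;CKO library 5, whereas Lamc1, Nid1 and Nid2 peak in libraries 3 and 6.

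Set against the summed markers of each cell type over the same 6 libraries, Fn1 had r = 0.94 with the endothelial markers, and 0.80 without the 2 farthest libraries. Col4a2 had r = 0.96 and Col4a1 r = 0.93 with them. Both stayed high without library 1 alone, at 0.91 and 0.85, and fell to 0.50 and 0.38 without libraries 1 and 5. Nid2 had r = 0.20 with the endothelial markers and 0.72 with the pericyte and mural markers, and without libraries 3 and 6 the values were 0.71 and 0.07, so the order of the 2 relations rests on those libraries. Sparc, which microglia of the young nervous system are known to express as well, had r = 0.84 (rho 0.94) with the microglia and macrophage markers, and 0.79 without library 1. With the endothelial markers Sparc had r = 0.61, and 0.00 without library 1. Without libraries 1 and 2, the 2 farthest for Sparc, r was 0.76 with the microglia and macrophage markers and 0.40 with the endothelial markers. The part of microglial RNA in the Sparc values was not tested.

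The genes outside the 10 that followed Col4a1 most closely over the 6 libraries were Fli1 (r = 0.990), an ETS transcription factor of endothelial and blood cells, Tgfb1i1 (r = 0.987), a focal adhesion adaptor, Tcf7 (r = 0.987), a transcription factor of the Wnt pathway, Rsu1 (r = 0.987), a partner of the integrin-linked kinase complex, and Mmrn2 (r = 0.986), a matrix glycoprotein of endothelial cells. An r over 0.95 was reached by 47 of 20449 genes, and Col4a2 ranked at place 5 of all genes by its r with Col4a1. For these 5 genes the log2 fold change ran from -0.65 for Tcf7 to -0.15 for Fli1, with limma-trend adjusted p from 0.883 to 0.913.

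Among related matrix genes, groups that did not overlap were found in both directions. Serpinh1, Plod2, Dag1 and Itgb1 were lower in every Bmal1;CKO library than in any control library. Lama1 and Fbn1, with few control reads, were higher in every Bmal1;CKO library. By limma-trend, 0 genes of the 5 lists passed an adjusted p of 0.05. Over all tested genes, 4.92% had an unadjusted p under 0.05 and 11.2% had groups that did not overlap. Of the 20 tested genes of collagen assembly and crosslinking, 10 were higher and 10 lower in Bmal1;CKO (median 0.04, and -0.03 by edgeR), 2 had an unadjusted p under 0.05, and 3 had groups that did not overlap, all of them lower. Serpinh1 encodes the collagen chaperone of the endoplasmic reticulum and was read at 69559, 70273 and 101806 in control and at 38938, 24067 and 48415 in Bmal1;CKO. Every Bmal1;CKO library was below every control library, with a log2 fold change of -1.15 (SE 0.34, unadjusted p = 0.011, adjusted p = 0.883) that lay between -1.37 and -0.87 with 1 library left out and was -0.60 after scaling to the endothelial markers. Plod2, a lysyl hydroxylase of collagen, was at 333, 332 and 288 against 39.4, 174 and 111, again without overlap (log2 fold change -1.78, SE 0.76, unadjusted p = 0.048). Pxdn, the peroxidase that links collagen IV trimers, was at 3248, 2169 and 3409 against 2295, 852 and 1690, with library 4 above control library 2 (-0.95, SE 0.42, unadjusted p = 0.055).

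Of the 21 matrix receptor genes, 11 were higher and 10 lower. Among them, 2 had an unadjusted p under 0.05 (4.92% of all genes) and 5 did not overlap (11.2% of all genes), 3 lower and 2 higher. The median was 0.21, and it was -0.20 by edgeR on the recovered reads and 0.20 by limma-voom. Dag1, which encodes the laminin and perlecan receptor dystroglycan, was at 4572, 2769 and 3186 in control and at 1366, 1433 and 2511 in Bmal1;CKO. Itgb1, the beta chain of the laminin, collagen and fibronectin integrins, was at 13269, 13767 and 22671 in control and at 7127, 7971 and 11591 in Bmal1;CKO. For both, all Bmal1;CKO libraries were below all control libraries, with log2 fold changes of -1.01 (SE 0.35, unadjusted p = 0.022) and -0.88 (SE 0.31, unadjusted p = 0.023) and adjusted p of 0.883. Scaled to the endothelial markers they were -0.46 and -0.33. Itgb5, a vitronectin receptor chain that microglia also express, was higher, at 42367, 26838 and 71411 against 87095, 82915 and 69212 (0.87, SE 0.39, unadjusted p = 0.056).

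Of the 12 other collagen IV and laminin chains, 8 were tested, 6 higher and 2 lower (median 0.34). By edgeR with TMM 3 were lower (median 0.20), and without control library 2 or library 6 it was 4 (medians 0.14 and 0.04). Only 2 of the 12 had at least 10 reads in every library, and 7 were at 0 in at least 1. There was 1 at an unadjusted p under 0.05 (4.92% of all genes) and 1 without overlap (11.2% of all genes). Lama1, the alpha chain of embryonic laminin and of the inner limiting membrane of the retina, was at 0, 0.93 and 27.9 in control and at 84.4, 185 and 226 in Bmal1;CKO. All Bmal1;CKO libraries were above all control libraries (unadjusted p = 0.0072, adjusted p = 0.883), although control libraries 1 and 2 held 0 and 1 read. With 39 reads in control library 3, Lama1 could pass the read filter only with Bmal1;CKO libraries, which favors a higher value there. Its p is therefore not read as evidence of a difference. Col4a3, a chain of the kidney and inner ear, was at 538, 13.0 and 64.3 in control and at 4.22, 15.5 and 10.7 in Bmal1;CKO, and its log2 fold change of -2.98 (SE 1.49, unadjusted p = 0.082) was -1.59 without control library 1. Lama3, an epithelial laminin chain, was at 2.46, 11.1 and 25.0 against 9.85, 30.2 and 58.5 (unadjusted p = 0.307).

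Other basement membrane components split into 8 higher and 11 lower of 19 tested (median -0.07, and -0.45 by edgeR). Only Fbn1 had an unadjusted p under 0.05 (4.92% of all genes), and 2 did not overlap, both higher (11.2% of all genes). Fbn1, the fibrillin of elastic microfibrils, had 1, 0 and 0 reads in control and 60, 54 and 30 reads in Bmal1;CKO, without overlap (unadjusted p = 0.0026, adjusted p = 0.825). It passed the read filter only through the Bmal1;CKO libraries, so its direction and lack of overlap follow from the filter. Its p is therefore not read as evidence of a difference. Fbln2, a fibulin that binds perlecan and nidogen, was at 111, 21.3 and 517 against 1094, 529 and 477 (unadjusted p = 0.0505). Sparcl1, a relative of Sparc made by vessels and astrocytes, was at 36847, 30444 and 50037 against 21336, 13650 and 34848, a log2 fold change of -0.82 (SE 0.39, unadjusted p = 0.067).

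Matrix turnover genes were 13 higher and 7 lower of 20 tested (median 0.21, and -0.17 without control library 1). By limma-trend 0 had an unadjusted p under 0.05 (4.92% of all genes), and 1 did not overlap, higher in Bmal1;CKO (11.2% of all genes). Adamts1, a protease of proteoglycans, was at 795, 2709 and 2689 against 2567, 2685 and 4009 (0.75, SE 0.51, unadjusted p = 0.182). Hpse, which cleaves the heparan sulfate of perlecan, was at 199, 154 and 470 against 582, 435 and 341 (0.86, SE 0.61, unadjusted p = 0.202).

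**Figure D5:**
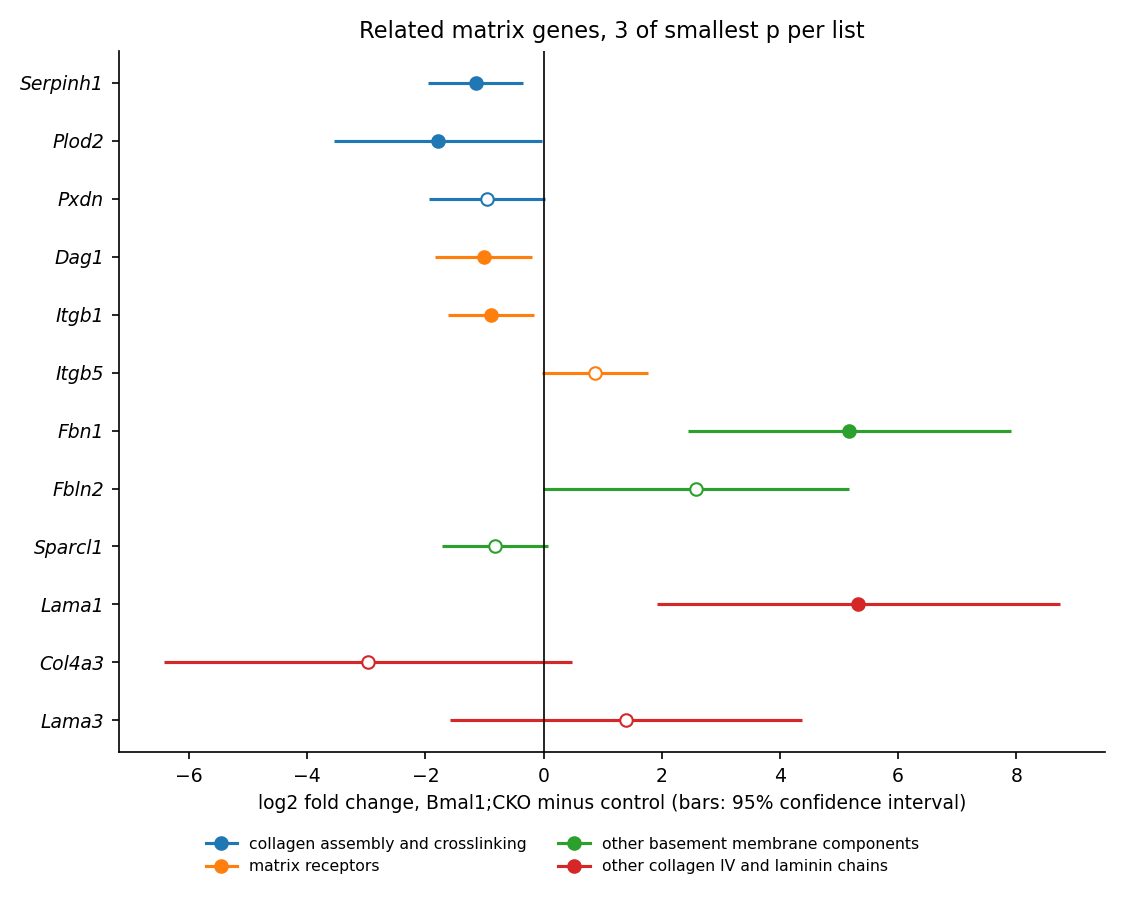
Log2 fold change, Bmal1;CKO minus control (horizontal axis), with the 95% confidence interval for the 3 genes of smallest unadjusted p in each of 4 lists (colors), matrix turnover left out. Filled points mark genes whose control and Bmal1;CKO libraries do not overlap. Fbn1 and Lama1 had 0 or 1 read in 2 or more control libraries, so the size of their estimates depends on the pseudocount of 1. Fbn1 passed the read filter only through the Bmal1;CKO libraries, and Lama1 could not have passed it through the control libraries alone.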

How the data were processed

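The authors used FastQC and Trimmomatic before alignment by Bowtie to GRCm38 (mm10), then featureCounts for gene counts and DESeq2. Versions and the use of strand are not given in the sources used here. The deposited table holds a signal per gene and library, the count divided by a DESeq2 size factor (0.711 to 1.40). Dividing by the smallest step gave whole reads for 100% of values (tolerance 0.05 read). The deposited log2 fold change with its standard error, the Wald score, the p-value and the adjusted p-value are the authors' own comparison and were not used. Column numbers do not match the labels' replicate numbers, so columns were used as replicates of their genotype; the study gives 3 animals per genotype, and p-values measure only the spread between these libraries.

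A gene was tested if 3 or more libraries held 10 or more of its reads, by limma-trend (limma 3.58.1, R 4.3.3) on log2(normalized count + 1), with Benjamini-Hochberg adjustment over all 20459. A fold change on this scale understates the change of low genes. The count tests on recovered reads, edgeR 4.0.16 and DESeq2 1.42.0, called 0 and 67 genes. Single ratios were compared by exact permutation tests over the 10 splits. The fit was tested on simulated data. Coordinates and exonic lengths came from the GENCODE annotation of GRCm38. An exonic length covers all annotated exons of a gene, merged over its transcripts. Levels per kb, their order between genes and the size of the ratios depend on this choice. The members and lists were chosen with earlier results of these data known. Genes named were the members, Bmal1, the 3 of smallest p in each pathway list, the 5 most correlated with Col4a1, and of each marker list the 2 most abundant and any at 0. A gene that this rule names is not reported here. The counting error given covers sampling of reads only, since the libraries were amplified.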

Additional observations from a re-analysis of the deposited data

How the results depend on the processing

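Under the 15 alternatives, 139 of 150 fold changes of the 10 genes kept their direction and their side of the threshold, and 11 changed sign, in 4 genes. Scaled to the endothelial markers, Lamc1 was 0.24, Nid2 0.20, Hspg2 0.12 and Bmal1 0.37, and the median of the 10 genes was -0.10. By edgeR with TMM, edgeR with DESeq2 size factors and DESeq2, Sparc was -0.11. With 1 library left out, Sparc ranged from -0.30 to 0.52 (-0.05 without control library 3 and -0.0034 without library 4), Nid2 from -0.87 to 0.13, Hspg2 from -0.90 to 0.21, Bmal1 from -0.49 to 0.029, and the median of the 10 genes from -1.06 (without control library 2) to -0.17 (without library 5). The log2 ratio of Col4a1 to Col4a2 ranged from -0.10 to 0.13 and that of Nid1 to Nid2 from -0.47 to 0.080. The number of genes at an adjusted p under 0.05 was 67 with DESeq2, 1 with at least 1 read in total, 1 with at least 10 reads in every library, 1 after endothelial scaling, and from 0 to 6 with 1 library left out, the 6 without control library 1; 0 of the 10 genes were among them in any case. The cause of these changes was not tested. Over the alternatives the adjusted p of the 10 genes ranged from 0.476 to 1.00. No paired analysis was possible because the columns carry numbers that run over the whole table, not the labels' replicate numbers. With 3 libraries per group, the spread between libraries limits these comparisons, since the confidence intervals of most genes span more than 2 on the log2 scale.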

Other observations

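Some of the 10 genes share exonic sequence with a neighbour on the opposite strand, and without strand in the counting such reads cannot be told apart. Nid2 shares 437 bases with Rtraf, which had a mean of 2179 reads, Fn1 shares 292 bases with Apol7d (mean 12.2 reads), Nid1 shares 143 bases with Gm48682 (mean 0.167 reads) and Col4a2 shares 43 bases with Gm15419 (mean 2.83 reads).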
